A study of Mus musculus with 32 samples.

Results

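Germinal centre (GC) B cells taken from immunised mice were compared with splenic B cells stimulated through their antigen receptor in culture for 6 h. The comparison used 5 of the 32 arrays of the series, and all of them held normal cells. The GC B cells were on 2 arrays (repeats 2 and 3) and came from ATMWT mice, which have the DNA damage kinase ATM, after immunisation with SRBC (sheep red blood cells). Their strain label does not name the deletion of CD3 epsilon, a subunit of the T cell receptor. The 6 h anti-IgM B cells were on 3 arrays. One was from ATMWT.CD3epsilonKO mice and 2 were repeats from ATMKO.CD3epsilonKO mice, which lack ATM, and all 3 received 15 ug/ml goat antibody to mouse IgM in vitro. One treatment field in the labels gives 3 h for cells whose titles and protocol text give 6 h, and the titles were followed. GC repeat 1 was left out as a failed array. Its spike-in RNAs, mixed at set proportions, gave measured ratios that correlated with the nominal ones at only 0.404, against 0.978 on the 2 GC arrays used and 0.995 to 0.997 on the 3 arrays of 6 h cells.

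On every array the sample was labelled with Cy5 and a common RNA pool with Cy3, so all levels below are log2 ratios of the sample to this pool. The pool mixed splenic B cells of both ATM genotypes with and without anti-IgM, lymphomas and GC B cells. A difference is GC B cells minus 6 h anti-IgM B cells on the log2 scale, so that 1 is a doubling. Each is given with its standard error and an adjusted p from limma with Benjamini-Hochberg correction over 22186 genes. Repeats were averaged first. The GC side is therefore 1 sample and the 6 h side 2 samples (ATMWT and ATMKO), and the spread came from the 6 h pair and the untreated pair of samples. The design text counts 1 biological and 2 technical repeats among the 3 GC arrays without naming them. As the GC side is 1 sample, variation between GC samples does not enter the p-values. They rest on the spread between the ATMWT and the ATMKO sample of each pair, which may be in part technical. ATM genotype differs in part between the sides, and sex-linked genes differed too, as given at the end. The place of the cells (mouse or culture), the CD3 epsilon deletion and the mode of activation differ together between the sides and cannot be told apart. In bulk RNA, fewer cells of a type and less RNA per cell cannot be told apart either.

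Both populations are activated B cells, at different points of a response. Antigen receptor engagement triggers immediate early transcription factors, NF-kappaB and MYC, and a resting cell grows before it first divides. GC B cells divide rapidly in the follicle, mutate their antibody genes and are held there by a changed set of migration receptors under the repressor BCL6.

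Relative to the pool, the 2 sides were weakly and negatively correlated. Across genes, log2 ratios of the GC sample correlated with those of the 6 h ATMWT sample at -0.132 and of the 6 h ATMKO sample at -0.142, whereas the GC repeats correlated at 0.985 and the 6 h samples of both genotypes at 0.950. This was not particular to the 6 h cells. The GC sample correlated with untreated ATMWT and ATMKO cells at -0.167 and -0.248. With the 3 h and 24 h ATMKO samples it correlated at -0.175 and -0.247. Genes are not independent replicates, and all arrays share the pool. As the pool itself holds GC and anti-IgM B cells, these correlations describe the ratios only and not how alike the cells' whole profiles are. The test called 9365 of 22186 genes, or 42.2%. Of these, 4168 (18.8% of the genes tested) were higher and 5197 (23.4%) lower in GC B cells, and the median difference of all genes was -0.03. These 2 shares are the background for the list counts below. None of the 9365 had opposite signs against the 6 h ATMWT and the 6 h ATMKO sample. The 2 GC arrays lay above all 3 arrays of 6 h cells for 36.3% of genes and below them for 42.2%, so a lack of overlap alone marks no gene out here. With the lymphomas of the series added to the fit (16 samples), 28 of the 155 genes named in the text that passed here did not. They were Bcl6, S1pr1, Foxo1, Egr1, Jun, Prdm1, Il4ra, Slamf1, Tnfsf9, Tnfrsf18, Cd200, Rasgrp3, Runx3, Id2, Itgax, Asns, Chac1, Aldoa, Cdkn1a, Nr4a2, Gpr183, the sex-linked Eif2s3y, Ddx3y and Xist, and the MHC class II genes H2-DMb1, H2-Oa, H2-Aa and Cd74. Each gene is represented by its brightest probe, and for some named genes a second probe gave a much smaller difference: 1.11 for Cpne5, 1.52 for Prim2, 2.15 for Enpp1, -1.48 for Tcf7, -0.42 for Runx3, 0.43 for Il4ra, -0.88 for Nab2, 1.17 for Ccne1, -0.80 for Cdkn1b and -2.0 for Gpr174. Smaller values also came from second probes of Ncl (-0.60), Pax5 (1.5), Bad (0.94) and Foxo1 (0.77), and some others are given beside their results.

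The deleted genes were read first. Atm had 0.99 and 1.09 in GC B cells, against 0.63 in 6 h ATMWT cells and -0.56 and -0.93 in 6 h ATMKO cells, which is the order the labels give. Its difference of 1.1 ± 0.60 did not pass the test (adjusted p = 0.198). It passed with the 6 h ATMWT sample or either untreated sample left out, and the difference was 0.40 against the ATMWT sample alone and 1.79 against the ATMKO sample alone. Cd3e had -1.91 and -1.88 in GC B cells, against -0.14, -0.39 and -0.14 in 6 h cells of the mice labelled as lacking this gene. It was lower in GC B cells by -1.69 ± 0.15 (adjusted p = 0.000869), the opposite of what the deletion alone would give, and where the probe lies relative to the deleted part was not tested.

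Genes of GC B cell identity stood apart in the direction of the label. Of 30 listed genes, all tested, 22 were higher in GC B cells (73.3%, against 18.8% of all genes) and 3 lower (10%, against 23.4%). The other 5 did not pass, and the median difference was 2.33. Gcsam, a GC-restricted adaptor that limits motility, reached 2.30 and 2.34 in GC B cells, against -2.66, -3.68 and -3.43 in 6 h cells, a difference of 5.43 ± 0.43 (adjusted p = 0.000583). The GC arrays lay far above the others, and the ATMWT sample was the highest of the 6 h cells. S1pr2 is described with the other migration receptors. Bcl6 itself differed by less, with 0.76 and 0.78 in GC B cells, against -1.40, -1.73 and -1.65 in 6 h cells, or 2.31 ± 0.20 (adjusted p = 0.000738). The transcription factors Mybl1 (4.51) and Mef2b (3.44) and the GC GTPase Nuggc (4.33) were higher too. Gpr174, a lysophospholipid receptor, was in the same list and was lower by -4.06 ± 0.14 (adjusted p = 0.000127), and 1 member of the list was lower without the 6 h ATMWT sample or with the lymphomas in the fit.

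**Figure D1:**
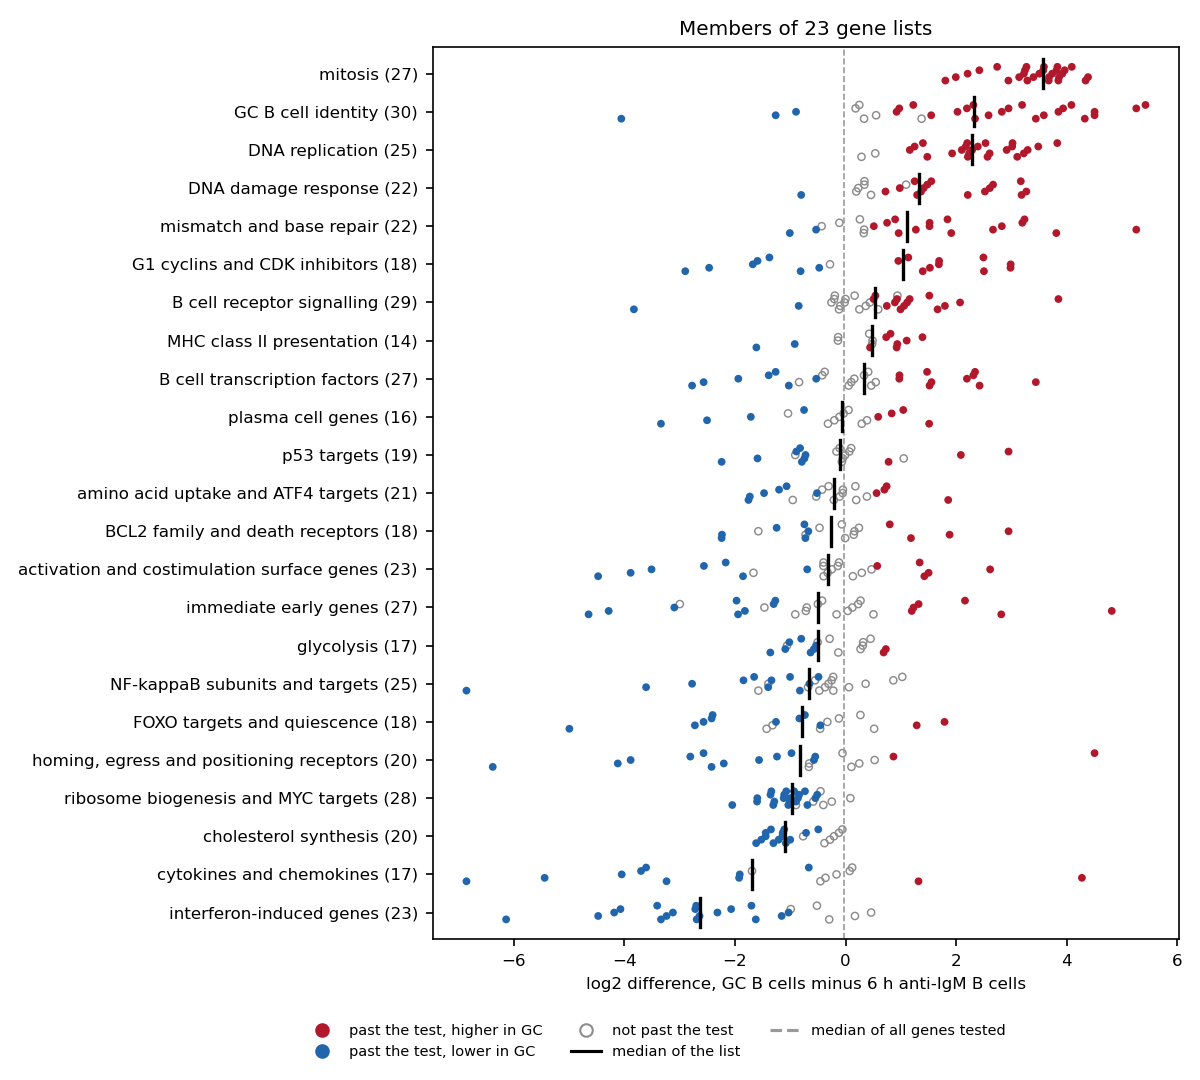
Log2 difference (x axis, GC B cells minus 6 h anti-IgM B cells) of each tested member of 23 gene lists (rows, with the number of members tested). Filled points passed the test and open points did not, black bars are list medians, and the dashed line is the median of all genes tested; mitosis (median 3.58) and interferon-induced genes (median -2.64) lie at the ends.

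Among the transcription factors of B cells, 10 of 27 were higher (37.0%, against 18.8% of all genes) and 7 lower (25.9%, against 23.4%), with a median of 0.33. With the lymphomas in the fit 3 were lower. Pax5, which maintains B cell identity, differed by 2.34 ± 0.13 (adjusted p = 0.000219), its partner coactivator Pou2af1 by 2.20 and Zbtb20 by 2.42. The lower side held Irf4, which drives plasma cell differentiation, with -2.69 on both GC arrays, against -0.01, 0.22 and 0.14 in 6 h cells, a difference of -2.78 ± 0.73 (adjusted p = 0.0299). Hhex (-2.57), Zbtb32 (-1.94), Runx3 (-1.39) and Id2 (-1.27) were lower as well. Prdm1, the master regulator of plasma cells, had -1.54 and -1.78 in GC B cells, against 0.18, -0.06 and -0.10 in 6 h cells, and was lower by -1.71 ± 0.46 (adjusted p = 0.0320). Irf4 and Prdm1 no longer passed when the 6 h ATMWT sample or the 6 h ATMKO sample was left out, though both kept their sign. Sdc1, the plasma cell surface proteoglycan CD138, was lower by -3.34 ± 0.16 (adjusted p = 0.000163). The plasma cell list as a whole had 4 of 16 members higher and 4 lower (25% each, near the shares of all genes), which became 1 and 2 with the lymphomas in the fit, 2 and 1 without the 6 h ATMWT sample, 1 and 2 without the 6 h ATMKO sample and 2 and 5 without GC repeat 2.

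In GC B cells, mismatch and base excision repair take part in turning lesions of the antibody genes into mutations. Of 22 genes of this process, 15 were higher in GC B cells (68.2%, against 18.8% of all genes) and 2 lower (9.09%, against 23.4%). The list median was 1.12. Among the higher ones were Hmces, which shields abasic sites (3.81), Fam72a, which lowers the uracil glycosylase UNG (3.24), the mismatch repair exonuclease Exo1 (3.20) and the glycosylase Neil1 (2.83). Apex1, the main abasic endonuclease, went the other way, with -0.34 and -0.41 in GC B cells, against 0.59, 0.70 and 0.65 in 6 h cells, or -1.01 ± 0.13 (adjusted p = 0.00319). The 2 lower members became 1 without either 6 h sample or without 6 h ATMKO repeat 1. In the wider DNA damage response list 1 of 22 genes was lower (4.55%, against 23.4% of all genes). None was lower without either 6 h sample or with the lymphomas in the fit. Another 15 were higher (68.2%, against 18.8%), and the list median was 1.33. The largest were in replication fork and crosslink repair, with Clspn at 3.27, Fanci at 3.18 (0.25 on a second probe), Fancd2 at 2.67 and Brca2 at 2.61.

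Cell division genes gave the most uniform difference of the lists. All 27 mitosis genes tested were higher in GC B cells (100%, against 18.8% of all genes), from 1.81 to 4.39 with a median of 3.58. All 27 passed in each of the 24 alternative fits. Mki67, the proliferation antigen Ki-67, had 1.20 and 1.19 in GC B cells, against -3.04, -3.17 and -3.36 in 6 h cells, a difference of 4.34 ± 0.17 (adjusted p = 0.00013). Cyclin B1 (Ccnb1), which activates CDK1 for mitosis, had 0.82 and 0.84 in GC B cells, against -2.85, -2.87 and -2.81 in 6 h cells, or 3.68 ± 0.14 (adjusted p = 0.000127). The kinesins Cenpe (4.39), Kif23 (4.09) and Kif20a (3.92) and the spindle factor Tpx2 (3.96) differed by at least as much as Ccnb1 on the probes used. Second probes gave 2.19 for Kif23 and 2.35 for Tpx2. Of 25 DNA replication genes, 23 were higher (92%, against 18.8% of all genes) and none lower, with a median of 2.29. They were led by the ribonucleotide reductase subunit Rrm2 (3.83), the origin licensing factor Cdc6 (3.49), DNA ligase Lig1 (3.22) and Gins1 (3.11). In limma, no member of either list was lower at an unadjusted p of 0.05 either.

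Beside the other normal states, the mitosis genes had their lowest medians at 6 h of anti-IgM. Their median ratio to the pool was 1.13 in GC B cells, -1.54 and -1.68 in untreated ATMWT and ATMKO cells, -2.24 at 3 h, -2.39 and -2.43 at 6 h (ATMWT and ATMKO) and -1.98 at 24 h of anti-IgM in ATMKO cells. The untreated mean lay between the sides and nearer to the 6 h cells for all 27 mitosis genes. Over all genes higher in GC B cells this held for 54.4%.

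Stretches of 3 promoters of this list are shown because their genes moved together and because mitotic genes are known to carry a cell cycle genes homology region, TTTGAA, which the capitals mark on either strand. The sequences are RefSeq's (GRCm38.p6), run 5′ to 3′ towards the start of the gene and hold no transcribed base; these genes, Mki67 apart, were picked after their values were seen.
Cdk1 (chr10:69352913-69353003, minus strand): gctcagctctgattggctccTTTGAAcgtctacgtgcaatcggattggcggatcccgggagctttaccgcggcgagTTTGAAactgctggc
Cdc20 (chr4:118437344-118437381, minus strand): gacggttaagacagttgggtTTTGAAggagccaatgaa
Mki67 (chr7:135716452-135716515, minus strand): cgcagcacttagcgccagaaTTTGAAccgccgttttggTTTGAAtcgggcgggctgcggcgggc
In the 250 bases before the start, TTTGAA on either strand was found in 9 of the 24 mitosis genes with a promoter in the table (37.5%), against 18.3% of all 27025 genes there. The CCAAT box (CCAAT on either strand) was found in 19 of the 24 (79.2%), against 37.5% of all genes. The E2F letters TTTCCCGC were found in 2 of 21 DNA replication genes (9.52%), against 1.03% of all genes. Cdk1, the mitotic kinase, was higher in GC B cells by 3.25 (0.72 on a second probe) and Cdc20, an activator of the anaphase-promoting complex, by 3.82. A match describes these letters only.

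The G1 regulators split. Of 18 tested, 10 were higher in GC B cells (55.6%, against 18.8% of all genes) and 7 lower (38.9%, against 23.4%). The D-type cyclins lay on opposite sides. Ccnd3 had 0.95 and 0.91 in GC B cells, against -2.02, -2.0 and -2.17 in 6 h cells, or 2.98 ± 0.19 (adjusted p = 0.000314). Ccnd2 had -2.84 and -2.79 in GC B cells, against -0.31, -0.27 and -0.50 in 6 h cells, or -2.47 ± 0.14 (adjusted p = 0.000238). Its ratio was -0.99 and -0.85 in untreated cells, so the 6 h cells were the highest and the GC cells the lowest of these states. Ccnd1 was lower too (-1.38). Cyclin E1 (Ccne1, 2.50), E2f2 (2.99) and the CDK4/6 inhibitor Cdkn2c (2.49) were higher. The retinoblastoma gene Rb1 was lower by -2.90 ± 0.14 (adjusted p = 0.000161), and the inhibitors Cdkn1b (-1.68) and Cdkn1a (-1.59) were lower. A second probe of Cdkn1a differed by 0.05, and Cdkn1a no longer passed without the 6 h ATMWT or the 6 h ATMKO sample. The 7 lower members became 4 without either 6 h sample.

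**Figure D2:**
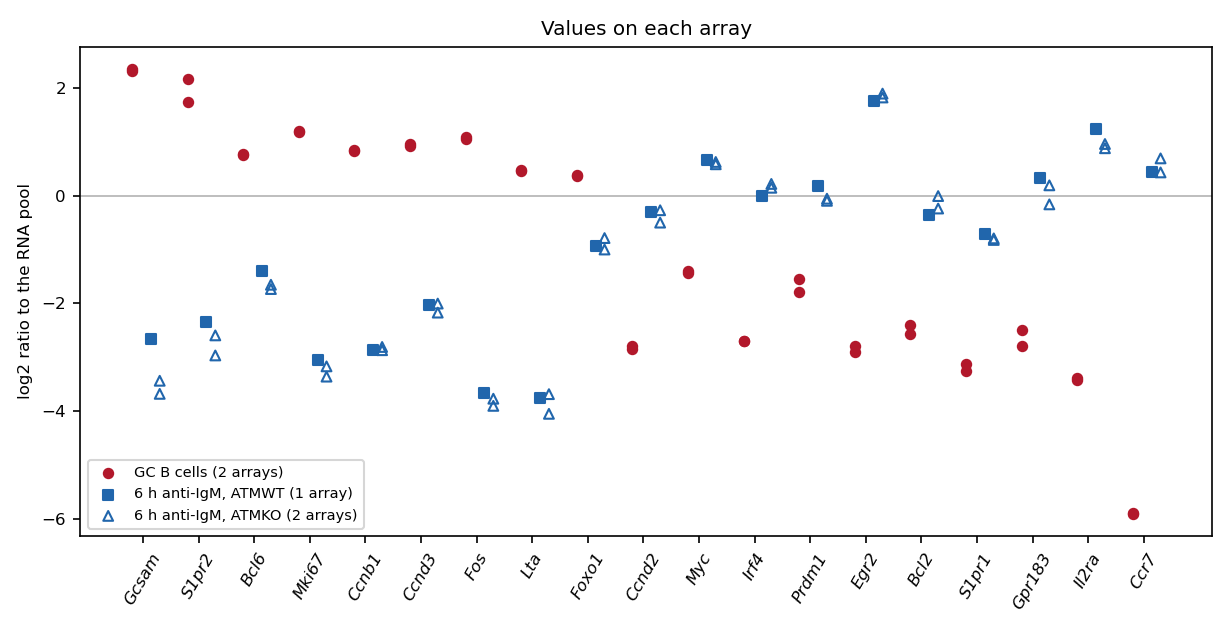
Log2 ratio to the RNA pool (y axis) of 19 genes on each of the 5 arrays, GC B cells to the left and 6 h anti-IgM B cells to the right of each gene's tick. In none of these genes do the arrays of the 2 sides overlap. Among all genes the GC arrays lay above all 6 h arrays for 36.3% and below them for 42.2%. Ccr7 in GC B cells (-5.89 and -5.88) is the lowest value shown.

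Growth genes ran against the division genes. The list of ribosome biogenesis and MYC targets had a median of -0.96. None of 28 was higher in GC B cells and 21 were lower in limma (75%, against 23.4% of all genes). At an unadjusted p of 0.05 these counts were 0 and 23. Myc had -1.40 and -1.44 in GC B cells, against 0.65, 0.62 and 0.58 in 6 h cells, a difference of -2.05 ± 0.59 (adjusted p = 0.0398). The arrays of each side lay close together, while untreated cells of the 2 genotypes, which enter the error, had 0.44 (ATMWT) and 1.98 (ATMKO). Nucleolin (Ncl), a nucleolar processing factor, had -0.50 and -0.59 in GC B cells, against 0.83, 0.93 and 0.65 in 6 h cells, or -1.36 ± 0.13 (adjusted p = 0.00104). The processing factors Utp20 (-1.60), Gnl3 (-1.60) and Pes1 (-1.34) were lower. Without the 6 h ATMWT sample 13 of the list were lower, and without the 6 h ATMKO sample 11. Myc and Gnl3 passed in neither case, Myc did not pass on the authors' deposited values or with median centring, and Pes1 did not without the ATMKO sample.

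Placed beside the other states, the 6 h cells were at the peak of this list. The median ratio to the pool was -0.15 in GC B cells, -0.46 and -0.35 in untreated ATMWT and ATMKO cells, 0.19 at 3 h, 0.70 and 0.77 at 6 h and -1.28 at 24 h. For 14 of the 21 lower members (66.7%) the untreated mean lay below both sides, against 7.6% over all genes lower in GC B cells. An E-box (CACGTG) was found in 1 of 21 promoters of the list (4.76%), against 6.86% of all genes.

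Sterol synthesis followed the same order of sides. The 20 cholesterol genes had a median of -1.09. None was higher in GC B cells and 14 were lower in limma (70%, against 23.4% of all genes). At an unadjusted p of 0.05 these counts were 0 and 15. Hmgcs1, an early enzyme of the mevalonate pathway, had -0.70 and -0.75 in GC B cells, against 0.90, 0.86 and 0.91 in 6 h cells, or -1.62 ± 0.15 (adjusted p = 0.000948), while a second probe gave -0.36. The feedback regulator Insig1 (-1.45), Idi1 (-1.44) and Msmo1 (-1.35) were lower, and Insig1 did not pass without the 6 h ATMWT sample. For all 14 the untreated mean lay below both sides. The list median was -0.58 in GC B cells, -1.75 and -1.66 in untreated cells, -1.85 at 3 h, 0.40 and 0.43 at 6 h and -0.95 at 24 h. The letters ATCAC directly followed by CCCAC, of a sterol regulatory element on either strand, were found in none of 13 promoters of the list and in 0.0814% of all genes.

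Of 17 glycolysis genes 2 were higher (11.8%, against 18.8% of all genes) and 7 lower (41.2%, against 23.4%). Among the lower were lactate dehydrogenase Ldha (-1.09) and aldolase Aldoa (-1.02). The 7 became 3 without the 6 h ATMWT and 2 without the 6 h ATMKO sample, and the 2 became 0 without the 6 h ATMWT sample and 1 without the 6 h ATMKO sample or its repeat 2. With the lymphomas in the fit 1 was higher and 0 were lower. Ldha and Aldoa did not pass with median centring. The highest glycolysis median was in neither side but at 24 h of anti-IgM (1.26), against -0.80 in GC B cells and -0.44 and -0.45 at 6 h. Among 21 genes of amino acid uptake and ATF4 targets 4 were higher and 6 lower (19% and 28.6%, near the shares of all genes), or 1 and 2 with the lymphomas in the fit. The glutamine transporter Slc1a5 was higher by 1.86 ± 0.18 (adjusted p = 0.00107), while asparagine synthetase Asns (-1.73) and Chac1 (-1.48) were lower. The cystine transporter Slc7a11 was not well above background on the GC arrays and was at least 3.32-fold lower there. The counts of this list became 2 higher and 3 lower without the 6 h ATMWT sample, and 1 and 4 without the 6 h ATMKO sample.

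**Figure D3:**
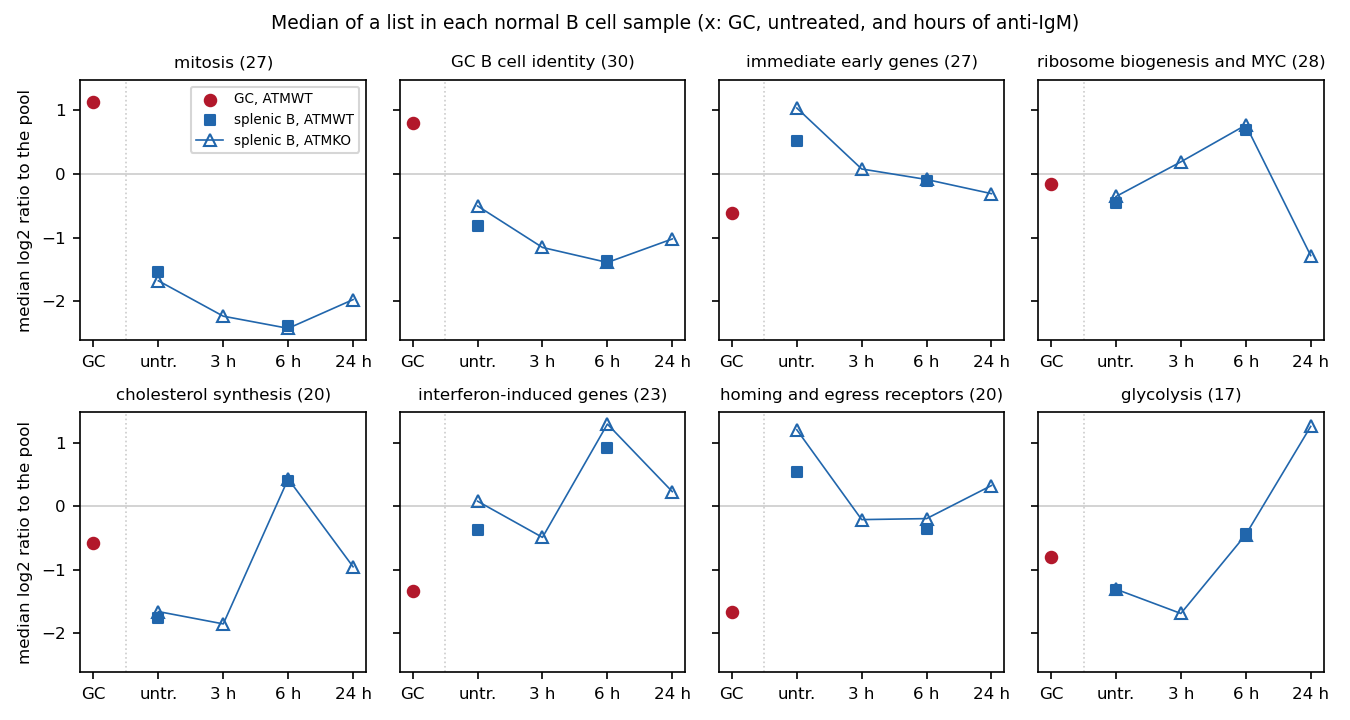
Median log2 ratio to the pool (y axis) of 8 gene lists in GC B cells, in untreated B cells and after 3, 6 and 24 h of anti-IgM (x axis), with the number of genes tested. Squares are ATMWT and triangles ATMKO splenic B cells, each point is 1 sample after averaging repeats; ribosome biogenesis, cholesterol and interferon medians are highest at 6 h and the mitosis median is highest in GC B cells.

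Of 27 immediate early genes tested, 6 were higher in GC B cells (22.2%, against 18.8% of all genes) and 8 lower (29.6%, against 23.4%), with a median of -0.50. These shares are near those of all genes, and single members are given as such. Fos, a subunit of AP-1, had 1.06 and 1.09 in GC B cells, against -3.65, -3.90 and -3.77 in 6 h cells, or 4.82 ± 0.24 (adjusted p = 0.000169). Fosb (2.82), Jun (1.23), the MAP kinase phosphatase Dusp1 (2.16) and Csrnp1 (1.32) were also higher. For all 6 higher genes the untreated mean lay above both sides. For Fos it was 2.08 and 1.57 in untreated cells, -1.89 at 3 h and -3.96 at 24 h.

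The zinc finger factors of the same class were on the other side. Egr2 had -2.79 and -2.89 in GC B cells, against 1.76, 1.82 and 1.89 in 6 h cells, or -4.65 ± 0.91 (adjusted p = 0.0119), and the 6 h cells were above every other normal state. Egr1, with -0.94 and -0.91 in GC B cells, against 0.49, 0.26 and 0.26 in 6 h cells, was lower by -1.30 ± 0.17 (adjusted p = 0.00302), and their corepressor Nab2 by -1.97. Fosl2 was not well above background on the GC arrays and was at least 19.0-fold lower there (adjusted p = 0.0124), but a second probe gave -0.09. Nr4a1, an orphan nuclear receptor induced by antigen receptor signals, had -3.03 and -3.04 in GC B cells, against -0.04, -0.13 and 0.08 in 6 h cells. The sides are far apart, but the difference of -3.0 ± 1.16 did not pass (adjusted p = 0.0904), and untreated ATMWT and ATMKO cells, which enter the error, had 0.11 and 3.20. Without the untreated ATMWT or the untreated ATMKO sample Nr4a1 passed, and 15 members of the list were lower. Its relative Nr4a2 was lower by -3.10 (adjusted p = 0.0391) and did not pass without either 6 h sample, and the same held for the higher Fosb. Fosl2 did not pass without the 6 h ATMWT sample.

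NF-kappaB subunits and targets had no higher member and 11 lower of 25 in limma (44%, against 23.4% of all genes), with a median of -0.65. At an unadjusted p of 0.05 these counts were 2 and 14, and 3 members were higher without either untreated sample and 1 with the lymphomas in the fit. The subunit Nfkb1 was lower by -1.85 ± 0.15 (adjusted p = 0.000641) and its nuclear partner Bcl3 by -1.65. The largest differences were in chemokines. Ccl4 had -5.79 and -5.75 in GC B cells, against 0.96, 1.13 and 1.31 in 6 h cells, and Ccl3 was lower by -3.61. The 11 became 5 without the 6 h ATMWT or the 6 h ATMKO sample, 15 without the untreated ATMWT and 17 without the untreated ATMKO sample. In the list of cytokines and chemokines 2 of 17 were higher (11.8%, against 18.8% of all genes) and 9 lower (52.9%, against 23.4%). Lymphotoxin alpha (Lta), which maintains follicles, was the exception in size, with 0.45 and 0.48 in GC B cells, against -3.76, -3.68 and -4.05 in 6 h cells, or 4.28 ± 0.29 (adjusted p = 0.000342). Of the 2 higher members 1 passed without either 6 h sample, without 6 h ATMKO repeat 2 or with the lymphomas in the fit. Il1b (-5.44), Ccl9 (-4.05) and Ifng (at least 14.3-fold, not well above background on the GC arrays) were lower, and these are genes that myeloid or T and NK cells express strongly.

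Among surface genes of activation 5 of 23 were higher (21.7%, against 18.8% of all genes) and 7 lower (30.4%, against 23.4%), which is near the shares of all genes. With the lymphomas in the fit 1 was higher and 4 were lower. Il2ra, the high affinity subunit of the interleukin 2 receptor, had -3.39 and -3.42 in GC B cells, against 1.23, 0.88 and 0.96 in 6 h cells, or -4.48 ± 0.18 (adjusted p = 0.000129). The 6 h cells were also above untreated cells (-1.92 and -1.81). Tnfrsf18 (-3.51), Cd38 (-2.56), which mouse GC B cells are known to lose, and Cd200 (-2.17) were lower. Slamf1 (2.62), the interleukin 4 receptor Il4ra (1.5), Tnfsf9 (1.43) and Cd24a (1.34) were higher. The activation markers Cd69 (-0.25), Cd86 (-0.40) and Cd83 (-1.40) did not pass. Cd86 and Cd83 passed without the untreated ATMWT or the untreated ATMKO sample, when 11 members were lower.

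Receptors for position and egress had 12 of 20 members lower (60%, against 23.4% of all genes) and 2 higher (10%, against 18.8%), with a median of -0.82. The sphingosine 1-phosphate receptors went opposite ways. S1pr2, which confines cells to the GC (probe at chr9:20770729-20770788, mm9), had 2.16 and 1.73 in GC B cells, against -2.34, -2.59 and -2.96 in 6 h cells, or 4.50 ± 0.37 (adjusted p = 0.00061). S1pr1, which draws cells out to blood and lymph, had -3.12 and -3.25 in GC B cells, against -0.71, -0.79 and -0.82 in 6 h cells, or -2.42 ± 0.30 (adjusted p = 0.00251). Ccr7, which leads towards the T cell zone, had -5.89 and -5.88 in GC B cells, against 0.43, 0.43 and 0.69 in 6 h cells, the largest of the list at -6.38 ± 1.04 (adjusted p = 0.00626). Ccr6 (-4.12), the oxysterol receptor Gpr183 (-2.81) and Klf2, a regulator of S1pr1 (-2.57), were lower. The follicle and dark zone receptors Cxcr5 (0.25) and Cxcr4 (-0.67) did not pass, and Cxcr4 passed without either untreated sample. Gpr183 did not pass without either 6 h sample, and the 12 became 6 without the ATMWT and 7 without the ATMKO sample of 6 h, and the 2 became 1 in both cases. With the lymphomas in the fit 5 were lower.

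In the antigen receptor pathway 14 of 29 members were higher (48.3%, against 18.8% of all genes) and 2 lower (6.9%, against 23.4%), with a median of 0.54. With the lymphomas in the fit 6 were higher and 1 lower. The inhibitory coreceptor Cd22 had 1.36 and 1.44 in GC B cells, against -2.45, -2.37 and -2.54 in 6 h cells, or 3.85 ± 0.14 (adjusted p = 0.000127). Rasgrp3 (2.07), the adaptor Dok3 (1.66) and Plcg2 (1.52) were higher. Vav3, an exchange factor downstream of the receptor, was lower by -3.83 ± 0.15 (adjusted p = 0.000129), one of 2 lower members that became 1 without either 6 h sample. Of the 14 MHC class II genes 7 were higher (50%, against 18.8% of all genes) and 2 lower (14.3%, against 23.4%). The peptide editor gene H2-DMb1 (1.39), H2-Oa (1.11), the invariant chain Cd74 (0.94) and the transactivator Ciita (0.92) were higher. The antigen-presenting chain H2-Aa was lower by -1.61 ± 0.18 (adjusted p = 0.00161). Cd74 did not pass without the 6 h ATMWT sample, and the 7 higher and 2 lower became 4 and 1 without the 6 h ATMKO sample and 1 and 0 with the lymphomas in the fit.

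Of 18 members of the BCL2 family and death receptor list 4 were higher (22.2%, against 18.8% of all genes) and 6 lower (33.3%, against 23.4%). Bcl2 had -2.41 and -2.56 in GC B cells, against -0.37, -0.01 and -0.24 in 6 h cells, or -2.24 ± 0.16 (adjusted p = 0.000417). Bcl2l1, which encodes BCL-XL, was lower by -0.73 ± 0.16 (adjusted p = 0.0181), but not past the test without either 6 h sample. The death receptor Fas had 0.94 and 0.96 in GC B cells, against -1.92, -2.18 and -1.96 in 6 h cells, or 2.95 ± 0.19 (adjusted p = 0.0003), and Bad (1.88) was higher. Another death receptor, Tnfrsf10b, was lower (-2.24). The 6 lower members became 2 without the 6 h ATMWT sample, 3 without the 6 h ATMKO sample or with the lymphomas in the fit, and 9 without either untreated sample. Of 19 p53 targets 3 were higher (15.8%, against 18.8% of all genes), Fas and the mitotic Gtse1 (2.09) among them. Another 7 were lower (36.8%, against 23.4%), with fewer lower without either 6 h sample and 1 with the lymphomas in the fit.

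FOXO targets and quiescence genes had 9 of 18 members lower (50%, against 23.4% of all genes) and 2 higher (11.1%, against 18.8%). The higher ones were the FOXO factors themselves. Foxo1 had 0.38 and 0.37 in GC B cells, against -0.94, -0.79 and -1.0 in 6 h cells, or 1.29 ± 0.14 (adjusted p = 0.00164). Foxo3 was higher by 1.79 on the probe used, with -0.51 on a second probe, and did not pass on their mean. With the lymphomas in the fit 1 member of the list was higher. Il7r was not well above background on the GC arrays and was at least 26.9-fold lower there (adjusted p = 0.000127), and T cells express it too. Klf3 (-2.41) was lower on its only probe, and Pik3ip1 (-2.73) and Btg1 (-2.42) on the probe used, while second probes of these 2 genes gave 0.05 and 0.24.

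Interferon-induced genes had the lowest median of the 23 lists other than cell type markers. That median was -2.64, and 17 to 21 of 23 members were lower in GC B cells in the alternative fits. In the main fit none was higher and 18 were lower in limma (78.3%, against 23.4% of all genes). At an unadjusted p of 0.05 these counts were 1 and 19, and 1 member was higher without GC repeat 3, 6 h ATMKO repeat 2 or either untreated sample. Xaf1, an interferon-induced antagonist of apoptosis inhibitors, had -4.59 and -4.73 in GC B cells, against 1.19, 1.56 and 1.98 in 6 h cells, or -6.14 ± 0.28 (adjusted p = 0.00015), while a second probe gave -0.50. The GTPase Mx2 (-4.07) and Rtp4 (-4.19) were lower, and Ifi44 and the antiviral Rsad2, not well above background on the GC arrays, were at least 15.1-fold and 9.12-fold lower there. The list median was -1.33 in GC B cells, -0.38 and 0.08 in untreated ATMWT and ATMKO cells, -0.49 at 3 h, 0.92 and 1.29 at 6 h and 0.23 at 24 h, so the 6 h cells lay above and the GC cells below the other states. Several of these genes are also expressed in myeloid cells, whose markers differed in the same direction, as given below.

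Promoter stretches of 4 interferon-induced genes are shown because an interferon-stimulated response element (GAAA, any 2 bases, GAAA) is what this gene class is known for. Capitals mark it on either strand, overlapping matches run together in Isg15, and these genes, Rsad2 apart, were picked after their values were seen. The sequences are RefSeq's (GRCm38.p6), 5′ to 3′.
Isg15 (chr4:156200855-156200916, minus strand): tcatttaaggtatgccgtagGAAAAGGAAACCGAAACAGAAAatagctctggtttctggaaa
Ifit1 (chr19:34640765-34640833, plus strand): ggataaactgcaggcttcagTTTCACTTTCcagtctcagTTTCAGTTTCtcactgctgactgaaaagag
Ifit3 (chr19:34583353-34583436, plus strand): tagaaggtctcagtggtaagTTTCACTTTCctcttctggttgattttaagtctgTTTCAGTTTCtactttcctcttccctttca
Rsad2 (chr12:26456543-26456592, minus strand): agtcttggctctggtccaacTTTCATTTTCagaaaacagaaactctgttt
The motif was found in 8 of the 17 interferon-induced genes with a searched promoter (47.1%), against 3.46% of all genes searched. The ubiquitin-like Isg15 had -1.45 and -1.46 in GC B cells, against 0.92, 1.48 and 1.42 in 6 h cells. Ifit3 was lower in GC B cells by -2.72, and Ifit1, not well above background there, at least 7.33-fold.

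Markers of other cells that passed were lower in GC B cells, with 1 exception. Of all genes tested 23.4% were lower. In GC B cells 16 of 19 T cell (84.2%), 12 of 12 NK cell (100%) and 13 of 14 neutrophil markers (92.9%) were lower. So were 12 of 13 erythroid (92.3%), 8 of 15 macrophage (53.3%), 7 of 10 follicular dendritic and stromal (70%) and 5 of 8 dendritic cell markers (62.5%). The dendritic cell marker Flt3 was higher by 2.30 ± 0.18 (adjusted p = 0.000567), with 0.34 on the lowest of its 3 probes. Of the macrophage markers 13 were lower without the untreated ATMWT sample, and of the dendritic cell markers 3 without the 6 h ATMWT and 2 without the 6 h ATMKO sample (3 with the lymphomas in the fit). S100a8, a neutrophil marker, had -7.68 and -7.72 in GC B cells, against 0.70, 0.62 and 0.78 in 6 h cells, the largest difference of all genes tested at -8.40 ± 0.15 (adjusted p = 0.000127). Cd3d (-4.43), Tcf7 (-4.99), the NK granzyme Gzma (-5.81), Lyz1 (-4.99), haemoglobin Hba-a1 (-3.90) and Itgax (-3.17) were lower. The T cell markers that passed were thus higher in the 6 h cells, whose mice are labelled as lacking CD3 epsilon. The reason was not tested. The mean log2 ratio of the neutrophil list was -3.82 and -3.87 on the GC arrays, against 0.28 to 0.35 on the arrays of 6 h cells, and that of the T cell list was -2.26 and -2.40 against -0.29 to -0.13. Of the 19 T cell markers 15 were well above background on each GC array and 19 on each array of 6 h cells, and of the 14 neutrophil markers 11 and 14. The macrophage list averaged -1.89 and -1.91 on the GC arrays, against -0.30 to -0.13 on the arrays of 6 h cells. In this comparison these lists were lower together with the interferon, NF-kappaB, cytokine, homing and FOXO target genes, and their part in those results was not tested. The untreated mean lay above both sides for all 13 lower neutrophil, 15 of 16 lower T cell and 5 of 8 lower macrophage markers. Of the lower genes of the other lists, this held for 1 of 18 interferon, 3 of 11 NF-kappaB and 3 of 9 cytokine genes. It held for 10 of 12 homing and 6 of 9 FOXO target genes, and for 42.2% of all lower genes.

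B cell markers went the other way, with 6 of 10 higher in GC B cells (60%, against 18.8% of all genes). In this list 1 was lower (10%, against 23.4%) and the median was 0.79. All 10 were well above background on every array. The 1 lower became 2 without GC repeat 2 or either untreated sample and 0 without either 6 h sample, and with the lymphomas in the fit 3 were higher and 0 lower. Ms4a1, which encodes CD20 (1.57), was higher. The mean of the list was 0.11 on both GC arrays, against -0.86 to -0.82 on the arrays of 6 h cells and 0.34 to 0.37 in untreated cells. Of 12 markers of follicular and resting B cells 9 were lower (75%, against 23.4% of all genes) and 2 higher (16.7%, against 18.8%). Of 13 markers of marginal zone and B-1 cells 9 were lower (69.2%) and 1 higher (7.69%). Plac8 (-5.71) and Cd9 (-3.58) were among the lower. Cr2, a member of both lists, was higher by 0.89, and Il4ra was the other higher member of the first list. With the lymphomas in the fit neither list had a higher member.

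**Figure D4:**
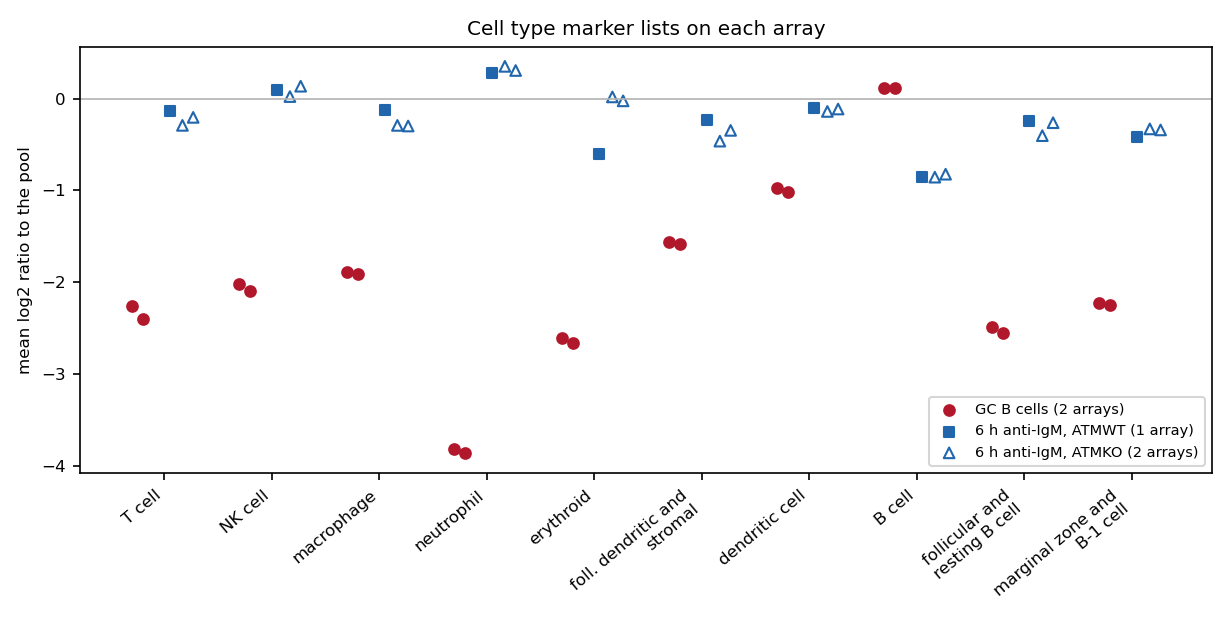
Mean log2 ratio to the pool (y axis) over each of 10 cell type marker lists (x axis) on the 5 arrays, GC B cells at the left of each tick. The GC arrays lie below the arrays of 6 h cells for every list except the B cell markers.

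The 12 largest differences towards GC B cells among genes with a symbol also held genes outside the lists. They included Trim12a (5.66), the RAS effector Rassf6 (5.65), the purine enzymes adenosine deaminase Ada (5.43) and Pnp2 (at least 31.9-fold, not well above background in 6 h cells), Ccrl1 (5.23), the ectonucleotidase Enpp1 (at least 35.6-fold, not well above background in 6 h cells), Mns1 (5.18), Dnase1 (5.13), the DNA primase subunit Prim2 (5.04) and Cpne5 (5.04), beside Gcsam. Ada had 1.57 and 1.55 in GC B cells, against -3.64, -4.09 and -4.12 in 6 h cells. The 12 largest in the other direction included the neutrophil and macrophage genes S100a8, Camp (-8.17), S100a9 (-7.24), Chil3 (-6.72), Ltf (-6.04) and the lipopolysaccharide coreceptor Cd14 (-5.91). H60a, a ligand of an NK cell receptor, was at least 138-fold lower in GC B cells (adjusted p = 0.000275).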

How the data were processed

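RNA was hybridised to Agilent mouse arrays in 2 colours. Scanner output came from Feature Extraction 10.1.1.1, per the file headers, while the submitters' processing notes name Feature Extraction 9.1 and limma. Each deposited scanner file gives intensity for both dyes with local background, and a log10 ratio with red in the numerator. The authors' processed log10 ratios, deposited as one matrix, equalled the scanner's within 5e-04 for spots above background in both channels, so the matrix has the same direction, and its column medians ran from -0.074 to 0.058, so it was not centred.

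Deposited intensities were corrected with normexp (offset 50) and loess within arrays in limma 3.58.1 (R 4.3.3), without control and outlier spots, and used as log2 ratios. Probes had to exceed background clearly in one of the channels on a share of arrays of 0.5 or more, and each symbol took its brightest probe. Of 55681 probes, 27235 were named through a RefSeq accession and 28446 kept the array's name. The fit held 7 samples from 11 arrays of normal B cells (GC, 6 h ATMWT and ATMKO, untreated ATMWT and ATMKO, 3 h and 24 h ATMKO) in 5 states, with 2 residual and 3.42 prior degrees of freedom, and 15 genes with a missing value were left out. The code was tested on simulated data.

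Where every array of a side failed the background criterion, a bound ("at least") is given, from red signals after loess and Aquantile scaling, each dim array counting with the higher of its own signal and its lowest signal well above background. The number of arrays limits the precision. The share of probes well above background in the sample channel was 53.0% and 53.6% on the GC arrays and 58.3% to 59.3% on the arrays of 6 h cells. The genes named were Atm and Cd3e, the 12 largest differences in each direction that passed without overlap of arrays (no interval, RIKEN, Gm or LOC names), up to 5 members per list and direction, and a set of genes typical of both states; exceptions are marked. The members and lists were chosen with earlier results of these data known. Background correction, normalisation, filter, probe choice, samples, genotype, slide and left-out repeats were varied. Exon annotation of the probes was not used here. Some genes that the naming rule gives are not reported here.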

Additional observations from a re-analysis of the deposited data

How the results depend on the processing

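The counts of 9365 genes past the test, 4168 higher and 5197 lower in GC B cells, stayed within 1.5 times in every alternative fit except those named here. With all 16 reference samples in the fit, lymphoma lines included, 5716 passed, 2618 higher and 3098 lower. Leaving out samples or repeats gave 4957 to 13143 calls, 2202 to 5851 higher and 2755 to 7301 lower. The lowest came without the 6 h ATMWT sample (with 5133 without the 6 h ATMKO sample), when 1 sample stands for the 6 h side and is assumed to vary like the untreated pair, and the highest without either untreated sample. Centring arrays on the median gave 7264 and the authors' deposited values 8859, with 40.6% and 48.7% of calls higher against 44.5%. Of the 155 named genes that passed, all kept their sign in 24 alternative fits and 117 passed in all of them. With GC repeat 1 averaged in, 7928 genes passed, and 7361 of the 9365 calls remained. With all 16 samples 28 of the named genes did not pass. Cd69, which did not pass, turned to 0.14 with ATM genotype as a term and to 0.17 with GC repeat 1 averaged in. With slide as a block 9934 genes passed, and within slide 4 (both GC arrays and 6 h ATMKO repeat 2) the list medians were 3.58 for mitosis and -2.88 for interferon-induced genes, as values with no test. No paired analysis was possible because the GC arrays (repeats 2 and 3) and the 6 h arrays (repeats 1 and 2) share fewer than 2 replicate numbers. Of 44 named genes with several probes, 4 had a probe of opposite sign.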

Other observations

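Sex-linked genes differed between the sides. The Y-linked Eif2s3y was not well above background on the GC arrays and was at least 40.4-fold lower there than in 6 h cells (adjusted p = 0.00273 in limma), and Ddx3y was at least 21.2-fold lower in the same way (adjusted p = 0.00874). Uty, also Y-linked, was not well above background on the GC arrays either, with a bound of at least 1.45-fold lower, and did not pass (adjusted p = 0.0812). Xist, expressed from the inactive X, had 1.01 and 0.99 in GC B cells, against -0.32, -1.20 and -0.89 in 6 h cells, a difference of 1.68 ± 0.41 (adjusted p = 0.0241). The sex of the animals is not in the labels used here, and its part in these differences was not tested.

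The largest difference of any gene towards GC B cells was that of Gm19958, a predicted gene outside the naming rule that was picked after its value was seen. It had a mean of 2.33 in GC B cells, against -5.32 in 6 h cells, a difference of 7.64 ± 0.19 (adjusted p = 0.000127).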
